A study of Mus musculus with 3 samples.

Results

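The genes described here are the protein-coding Fox, Sox, Tbx, Pax and Gata genes of the mouse, examined for HBO1 occupancy in Oct1 deficient embryonic stem cells (ESCs). A gene was a member if its symbol in the GENCODE vM21 annotation was Fox followed by 1 letter and a digit, or Sox, Tbx, Pax or Gata followed by a number and nothing more. Sox2 and Tbx3 were left out. The rule used symbols only and no measured value, but it was set with earlier results of these data known. It gave 89 of 21938 protein-coding genes, made up of 44 Fox, 18 Sox, 12 Tbx, 9 Pax and 6 Gata genes.

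The series held 3 samples, 1 of input chromatin and 2 of HBO1 chromatin immunoprecipitation (ChIP). All 3 came from mouse ESCs labelled Oct1 deficient, the controls included, so no group with intact Oct1 was compared. All were cultured with the MEK inhibitor PD0325901 (written PD03259010 in the labels) at 1 μM, the GSK3 inhibitor CHIR99021 at 3 μM and ascorbic acid, and fixed with 1% formaldehyde. The antibody field of ChIP sample 2 reads HBO2, whereas its title reads HBO1. The peaks came as 1 list for both ChIP samples, so no value below has a spread between replicates, and the intervals given cover counting error only. The labels give neither the number of ESC clones nor the lesion in Oct1. Input over Pou2f1, the gene of Oct1, was 4.39 read ends per kb, within the middle 90% of coding genes (1.28 to 48.7, median 7.94), which does not show where the lesion lies. No RNA was measured, so neither the expression of the 89 genes nor the identity of the cells could be read from these data.

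The 5 families encode DNA-binding transcription factors. Fox proteins bind through a forkhead domain, Sox proteins through an HMG box, Tbx proteins through a T-box, Pax proteins through a paired domain and Gata proteins through zinc fingers. Many of them direct the formation of particular lineages and are silent or low in ESCs, whereas a few, such as Foxo1, Foxo3, Foxk1, Foxk2, Foxj2 and Foxj3, are present in most cell types. HBO1 (Kat7) is a histone acetyltransferase that works in complexes with Jade or Brpf scaffold proteins. It acetylates histones H3 and H4 and is found at the starts of many active genes.

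GC-rich gene starts carried HBO1 peaks more often than others, so GC content was the basis of comparison. The sequences below illustrate this for single members. The stretches shown are shorter than the 1 kb used for the comparison, and those of Foxk2 and Foxp4 lie outside the peaks. They are the 120 bases before the outermost transcription start site (TSS), read 5′ to 3′ on the strand of the gene from GRCm38 (mm10), with CG dinucleotides in capitals. The first 3 belong to members with a peak within 1 kb of a TSS.
Foxk2 (chr11:121259870-121259989, + strand): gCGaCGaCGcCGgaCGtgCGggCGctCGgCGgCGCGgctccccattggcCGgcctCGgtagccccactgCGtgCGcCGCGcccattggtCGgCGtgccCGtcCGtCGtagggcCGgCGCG
Foxj2 (chr6:122819794-122819913, + strand): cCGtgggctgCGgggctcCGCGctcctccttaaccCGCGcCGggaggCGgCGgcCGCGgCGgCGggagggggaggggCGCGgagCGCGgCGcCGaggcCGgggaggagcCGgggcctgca
Foxp4 (chr17:47924646-47924765, - strand): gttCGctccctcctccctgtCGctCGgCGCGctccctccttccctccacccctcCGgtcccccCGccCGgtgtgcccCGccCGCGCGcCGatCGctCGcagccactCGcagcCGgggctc
The next 4 belong to members without one. Gata2 had the highest promoter GC among such members of its family. Foxo6, which had it among such Fox genes, is not shown. Foxj2 and Foxp4 above and Foxf1, Foxd2 and Foxk1 here were chosen after their values were seen.
Foxf1 (chr8:121084266-121084385, + strand): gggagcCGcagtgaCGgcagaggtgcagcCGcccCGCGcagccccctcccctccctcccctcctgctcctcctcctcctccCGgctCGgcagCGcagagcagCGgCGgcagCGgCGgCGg
Foxd2 (chr4:114908874-114908993, - strand): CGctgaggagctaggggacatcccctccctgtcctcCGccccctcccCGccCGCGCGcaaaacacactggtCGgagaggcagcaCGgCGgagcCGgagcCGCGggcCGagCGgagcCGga
Gata2 (chr6:88193771-88193890, + strand): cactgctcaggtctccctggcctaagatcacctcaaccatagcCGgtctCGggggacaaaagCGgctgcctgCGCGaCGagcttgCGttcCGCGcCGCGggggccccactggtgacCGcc
Foxk1 (chr5:142401377-142401496, + strand): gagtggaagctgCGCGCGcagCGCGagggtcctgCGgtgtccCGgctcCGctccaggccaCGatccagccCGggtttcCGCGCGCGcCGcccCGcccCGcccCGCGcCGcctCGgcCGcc
The stretch of Foxk2 held 25 CG dinucleotides, that of Foxj2 21 and that of Foxp4 17. Those of Foxf1, Foxd2 and Gata2 held 13, 15 and 12. Foxk1 held 22 and had no peak. Over all members, the median was 16 CG in the 15 genes with a peak near a TSS, with a range from 0 to 25, and 7 in the 74 genes without one, with a range from 0 to 22, so the groups overlapped. Over all coding genes the medians were 10 and 3.

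Of the 89 genes, 15 had an HBO1 peak within 1 kb of any of their TSSs, measured from the edge of the peak. That is 16.9% (exact binomial 95% interval 9.75 to 26.3%), against 21.7% of all coding genes. The members had GC-rich starts, with a median GC of 60.7% in the 1 kb around the outermost TSS against 54.8% over all coding genes. When each member was given the share of the other coding genes in its own class of GC, 28.1 genes, or 31.6%, would have had a peak. The observed count was 0.534 of that number, and the share from like GC lay above the interval of the observed share.

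Fox genes held most of the peaks. In this family, 12 of 44 had a peak near a TSS, against 15.2 from genes of like GC. Among Sox genes, 3 of 18 had one, against 6.52. None of the 12 Tbx genes had one (interval up to 26.5%), against 2.99 from like GC. None of the 9 Pax genes had one (up to 33.6%), against 1.83, and none of the 6 Gata genes (up to 45.9%), against 1.57. In each family taken alone, the share from like GC lay inside the interval of the observed share, so the shortfall was not resolved at the size of a single family.

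**Figure D1:**
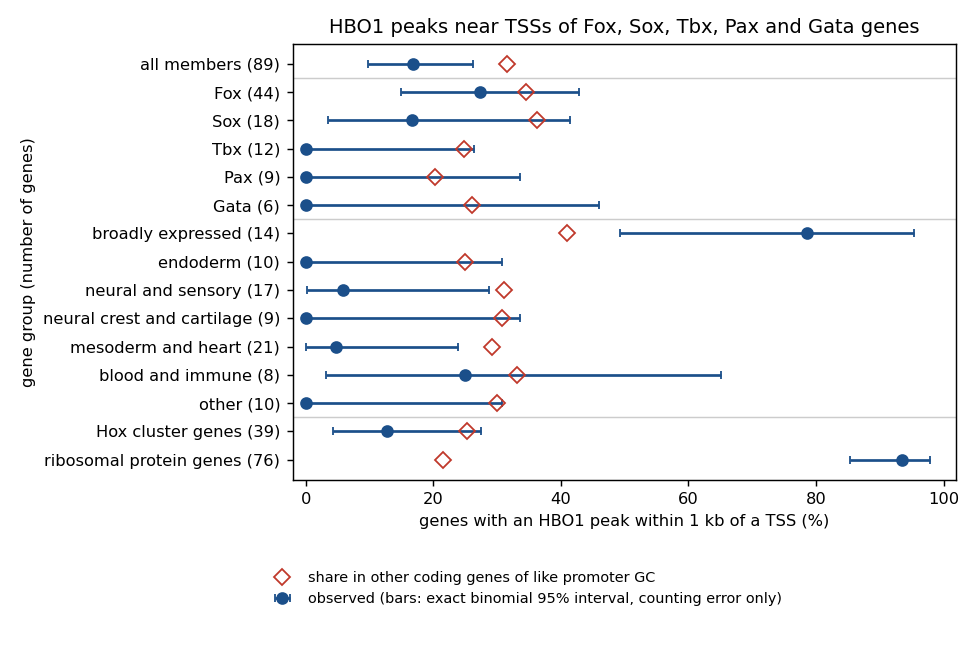
Share of genes with an HBO1 peak within 1 kb of a TSS (x axis, percent) for all 89 members, the 5 families, the 7 lists by role, Hox cluster genes and ribosomal protein genes (y axis, with the number of genes). Circles are observed shares with exact binomial 95% intervals and diamonds are the shares of other coding genes of like promoter GC. The broadly expressed members (78.6%) and the ribosomal protein genes (93.4%) lie right of their diamonds, and all other groups lie left of theirs.

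The members were also grouped by role from general knowledge. The list of broadly expressed factors held 14 genes: Foxj2, Foxj3, Foxk1, Foxk2, Foxm1, Foxn2, Foxn3, Foxo1, Foxo3, Foxo4, Foxp1, Foxp4, Sox4 and Sox12. Of these, 11 had a peak near a TSS, which is 78.6% (49.2 to 95.3%), against 5.73 genes from like GC. Foxk1, Foxo4 and Sox4 had none. Of the other 75 members, 4 had a peak, which is 5.33% (1.47 to 13.1%), against 22.3 genes from like GC. These were Foxd1, Foxp3, Sox11 and Sox13. The broadly expressed genes thus had 1.92 times the count of genes of like GC and the others 0.179 times. Since the lists were drawn up with earlier results of these data known, both counts are descriptions.

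The lists by role other than the broadly expressed one all lay below the count from like GC, by little in the blood and immune list. The share from like GC lay above the interval of the observed share only in the neural and sensory list (31.1% against up to 28.7%) and the mesoderm and heart list (29.3% against up to 23.8%), and inside it in the others. These intervals treat genes as independent, although some members are neighbours, such as Foxf1, Foxc2 and Foxl1. As the lists were drawn up with earlier results known, the intervals too are descriptions. None of the 10 endoderm genes had a peak near a TSS, against 2.49 from like GC. This list holds Foxa1, Foxa2 and Foxa3, which open chromatin in gut and liver, and Gata4, Gata5, Gata6, Sox7 and Sox17, which act in primitive and definitive endoderm. None of the 9 genes of neural crest and cartilage had one, against 2.77, among them Sox9 and Sox10. Of the 17 neural and sensory genes, only Sox11, a factor of neuronal precursors, had one, against 5.29. Of the 21 mesoderm and heart genes, only Foxd1, which marks kidney stroma, had one, against 6.14. In the blood and immune list 2 of 8 had one, against 2.64: Foxp3, which specifies regulatory T cells, and Sox13, which acts in gamma delta T cells. None of the 10 remaining genes had one, against 3.01.

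The same split was counted again within the Fox family, which holds 12 of the 14 broadly expressed members, and within bands of GC. These counts describe largely the same genes and add no independent support. Among Fox genes, 10 of 12 broadly expressed members had a peak, against 4.99 from like GC, and 2 of the other 32, against 10.2. A promoter GC of 70% or more was found in 11 members, a range in which 61.2% of other coding genes had a peak. All 5 broadly expressed genes among them had one, and none of the other 6 did. Those 6 were Foxo6 (74.3% GC), Foxf1 (72.8%), Foxd2 (71.7%), Sox30 (71.0%), Tbx2 (70.6%) and Foxf2, at the limit. From 65 to 70% GC, where 46.4% of other coding genes had a peak, 3 of 4 broadly expressed and 3 of 14 other members had one. Below 65% GC, peaks were found at Foxj3, Foxn3, Foxp1 and Foxd1. From 60 to 65%, where 32.8% of other coding genes had a peak, 1 of 2 broadly expressed and 1 of 16 other members had one. From 55 to 60% (22.6%) these were 1 of 1 and 0 of 21. From 50 to 55% (17.2%) they were 0 of 1 and 0 of 9, and below 50% (6.51%) 1 of 1 and 0 of 9. Foxj3 and Foxp1 had theirs at TSSs inside the gene, and their outermost TSSs lay 2709 bp and 146300 bp from the nearest peak. GC was matched at the outermost TSS, whereas peaks were counted at any TSS. With the outermost TSS only, 9 broadly expressed and 4 other members had a peak, and the ratio for all members was 0.510. For this setting the share of all coding genes and the counts from like GC by list were not taken. The counts by list therefore have no background here.

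**Figure D2:**
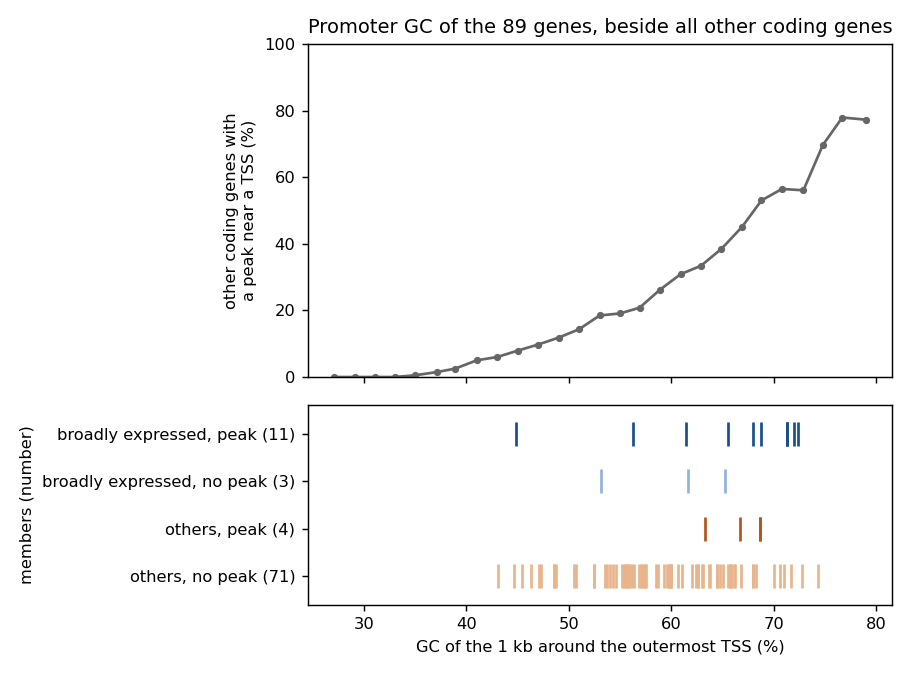
Upper panel, share of other coding genes with an HBO1 peak within 1 kb of a TSS (percent) in classes of GC of the 1 kb around the outermost TSS. Lower panel, GC of the 89 members on the same axis, 1 line per gene, split by list and by peak. Members without a peak reach 74.3% GC, in a range where 61.2% of other coding genes had a peak.

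The broadly expressed members differed from the others in several measured ways besides role. Their median promoter GC was 66.8% against 59.8%, their median length 53710 bp against 7364 bp, their median number of annotated TSSs 3.5 against 2, and the median input in the 1 kb around the outermost TSS 92.5 read ends against 62. Each GC class was next cut in 2 at the median of a further measure over the other coding genes. With the cut by gene length, the count of broadly expressed members was 1.91 times that of like genes. The count of the others was 0.181 times. With classes cut by number of TSSs these values were 1.93 and 0.200, and with classes cut by input they were 1.87 and 0.180. With classes of CpG observed over expected in place of GC, they were 1.57 and 0.225. The direction of both was the same in all of these. The called genes were the same throughout and only the counts from like genes changed, so these values are descriptions and add no independent support. A cut at the median matches genes only coarsely. Other coding genes weighted to the GC of the broadly expressed members had a median length of 29629 bp, below their 53710 bp. The part of expression in the split was not tested.

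The peaks near TSSs of members were modest. There were 19 on the 15 genes, 11 genes with 1 peak and 4 (Foxd1, Foxn3, Foxo3 and Sox13) with 2. Their fold enrichment over local background ran from 1.76 to 2.77 with a median of 2.21, where all peaks near coding TSSs had a median of 2.63 and reached 23.1. Their −log10 q, the significance given by the peak caller, had a median of 5.80 against 7.86. The summit lay downstream of the nearest TSS of the gene in 16 of the 19 and upstream in 3. A TSS was covered by 7 of them. By annotation, 9 summits lay in UTRs, 5 in other exons, 3 in introns and 2 between genes.

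Only 1 of the 19 peaks had a −log10 q of 10 or more. It belonged to Foxk2, a forkhead factor of most tissues, and spanned chr11:121260100-121260642 with its summit in an exon, enriched 2.51-fold with a −log10 q of 10.7. At that limit 7.97% of all coding genes kept a peak near a TSS, and 10.4 of the 89 members would have from like GC. The 14 broadly expressed members taken alone had 1, against 2.21. Their count, above that of like GC with all peaks, was below it at this limit, where both counts are too small to resolve a difference. At a −log10 q of 5 or more, which 17.3% of all coding genes reached near a TSS, 9 of the 14 had a peak against 4.65 from like GC, and 2 of the other 75 against 17.7.

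Foxo3, a FoxO factor of the response to stress and insulin, had the next strongest peak. It was the widest of the 19 at 1388 bp, lay at chr10:42274722-42276109 downstream of the outermost TSS, and had a −log10 q of 9.54 and a fold enrichment of 2.66. A second peak of 387 bp lay on the other side of the start and had a −log10 q of 5.53. Foxm1, a driver of mitotic genes, had a peak with a −log10 q of 9.25 and the highest fold enrichment of the 19, 2.77. That peak covered the TSS of Rhno1 as well. Foxn3 had 2 peaks near TSSs, one at a start inside the gene with a −log10 q of 7.73 and one at the outermost start with 2.55, which also covered the start of the noncoding gene Gm26839.

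In the Sox family, Sox13 had 2 peaks, with −log10 q of 6.63 and 4.02. Sox11 had 1 with 3.69, whose edge lay 884 bp downstream of the TSS, and Sox12 had 1 with 3.53. Foxd1 had 2 peaks, with −log10 q of 4.41 and 2.31, and Foxp3 had 1 with 5.80. Of the 19 peaks, 6 lay within 1 kb of a TSS of another gene, those of Foxj2, Foxj3, Foxm1, Foxn3, Foxo1 and Foxp3, and for these the list cannot say which start the peak belongs to. No peak was counted for more than 1 member.

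**Figure D3:**
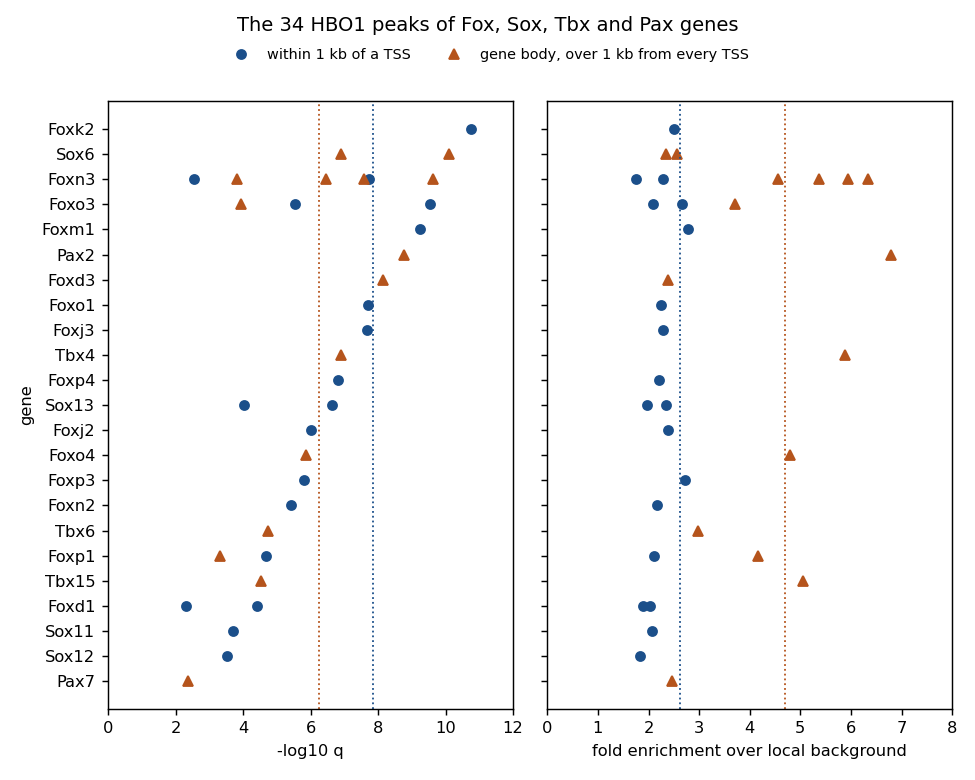
The 34 HBO1 peaks of 23 members, by gene, with −log10 q (left) and fold enrichment over local background (right). Circles are peaks within 1 kb of a TSS and triangles are peaks in the gene body over 1 kb from every TSS, with dotted lines at the medians of the same kinds of peak over all coding genes. The fold enrichment of 11 of the 15 triangles lies above every circle, and only Foxk2 and Sox6 reach a −log10 q of 10.

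Values just inside and outside the limit of 1 kb show how the count depends on it. Just inside were Foxn2, with a peak 728 bp from a TSS, and Sox11. Just outside were Foxd3 at 1060 bp, Foxa3 at 1103 bp, Tbx6 at 1277 bp and Sox15 at 1428 bp. The peaks of Foxa3 and Sox15 were nearer to a TSS of another coding gene. The peak next to Foxa3 was the strongest of these nearest peaks, with a −log10 q of 12.5, and lay 215 bp from a TSS of Sympk. The peak next to Sox15 lay 1161 bp from Mpdu1. The peak of Foxd3, a factor of neural crest and of early pluripotent cells, lay inside its own exon and over the start of the microRNA gene Gm23366, with a −log10 q of 8.14. With a limit of 2 kb, 8 of the 75 members that are not broadly expressed had a peak, against 23.2 from like GC and 22.9% of all coding genes.

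Peaks anywhere in the gene were found in 23 of the 89 members, or 25.8% (17.1 to 36.2%), against 28.2% of all coding genes and 34.3 genes, or 38.5%, from like GC. The ratio was 0.672. By family these were 14 Fox, 4 Sox, 3 Tbx, 2 Pax and no Gata genes. Of the broadly expressed members 12 of 14 had one, against 6.57 from like GC, and of the others 11 of 75, against 27.7. Every member with a near-TSS peak was among the 23, so these counts are not independent of those near TSSs. The members had a median length of 9693 bp, against 23661 bp in other coding genes weighted to their GC. With each GC class cut at the median gene length, the ratio for all members was 0.710. Peaks in the body over 1 kb from every TSS of the gene were found in 11 members, or 12.4% (6.33 to 21.0%), close to the 12.5% of all coding genes and to the 14.1 genes from like GC.

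Most of these 15 peaks away from TSSs differed from those near TSSs in fold enrichment and input, whereas those of Foxd3 and Sox6 lay within the near-TSS ranges of both. Their median fold enrichment was 4.56, and 11 of the 15 exceeded every near-TSS peak of a member. Their median input, counted over 1 kb at the summit, was 9 read ends, against 103 for the near-TSS peaks, and 10 of them had 10 or fewer. The part of sparse input in the higher fold was not tested. The same contrast held over all coding genes, where the median fold was 4.69 in gene bodies and 2.63 near TSSs. Of the 15 summits, 12 lay in introns and 3 in exons, those of Foxd3, Tbx6 and Tbx15.

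Foxn3, a forkhead repressor encoded by a gene of 373505 bp, had the most peaks of any member, 4 in its introns beside the 2 near TSSs. The strongest, with a −log10 q of 9.64 and a fold enrichment of 5.94, was followed by peaks with a −log10 q of 7.58, 6.45 and 3.83. Foxo3 came next with 3 peaks within 5 kb of the gene, and Foxd1, Foxp1, Sox6, Sox13 and Sox15 had 2 each. Pax2, which is needed for kidney, eye and ear, had the highest fold enrichment of all members' peaks, 6.78, with a −log10 q of 8.78, in an intron 52621 bp from its nearest TSS. Tbx4, a factor of the hindlimb and lung, had an intronic peak enriched 5.87-fold, with a −log10 q of 6.91. Of the 5 longest members, Foxn3, Foxp1 and Sox6 had 6, 2 and 2 peaks in the gene, those near TSSs included, and Sox5 (953553 bp) and Foxp2 (540629 bp) had none. The median length was 49823 bp in the members with a near-TSS peak and 7040 bp in those without one. Summed over the members, there were 2.96 gene-body peaks over 1 kb from every TSS per Mb of gene, against 3.97 over all coding genes.

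Sox6, a factor of cartilage and red cells, had 2 intronic peaks 228618 bp apart, with a −log10 q of 10.1 and 6.91. Both lay in repeated sequence. The 100 bases around each summit are shown because, apart from a shift, one is the reverse complement of the other, together with those of the intronic peaks of Pax2 and Foxn3, which are unique. All are on the plus strand of GRCm38, with CG in capitals.
Sox6 (chr7:115589259-115589358, + strand): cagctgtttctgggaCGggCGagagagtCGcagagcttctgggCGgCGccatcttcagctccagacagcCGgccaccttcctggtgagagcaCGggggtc
Sox6 (chr7:115818517-115818616, + strand): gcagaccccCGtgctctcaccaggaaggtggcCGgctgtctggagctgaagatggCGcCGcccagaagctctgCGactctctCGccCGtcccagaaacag
Pax2 (chr19:44812737-44812836, + strand): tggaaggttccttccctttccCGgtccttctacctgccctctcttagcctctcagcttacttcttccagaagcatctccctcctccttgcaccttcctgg
Foxn3 (chr12:99366162-99366261, + strand): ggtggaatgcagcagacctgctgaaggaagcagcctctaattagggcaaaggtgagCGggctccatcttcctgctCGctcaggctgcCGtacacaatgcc
The 2 Sox6 regions shared at least 462 identical bases on opposite strands, at chr7:115589147-115589608 and chr7:115818270-115818731. The search covered only a window around each summit and the run reached the edge of that window, so it may extend further. The 32 bases at their summits occurred 801 and 686 times in the genome, counting both strands, and both summits lay in the part of the reference masked as repeats. For the other 32 peaks of members these 32 bases occurred once. Among all peaks in coding gene bodies away from TSSs, 23.1% had summits with more than 1 copy. Reads from such copies cannot be assigned to 1 place with certainty, and without these peaks Sox6 had none and 22 members had a peak in the gene body (24.7%), against 31.7 genes from like GC and 25.3% of all coding genes.

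The octamer, ATGCAAAT, and the palindrome ATGCATATGCAT, known as the MORE, are sequences bound by POU factors such as Oct1 and Oct4. They were sought on both strands in the 400 bp around each summit, and neither can contain the other. None of the 34 members' peaks held either. Over all 13823 peaks, 0.615% held the octamer and 0.0145%, or 2 peaks, the MORE, so with 34 peaks a count of 0 says little.

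The distance to the nearest peak was also measured, which needs no limit. It rests on the same peaks and genes as the counts above and adds no independent support. From any TSS of a member to the nearest peak edge the median was 58665 bp, against 19213 bp in other coding genes weighted to the same GC and 33487 bp in all coding genes. It was 90 bp in the broadly expressed members, against 11396 bp in other coding genes weighted to their GC. In the other members it was 67283 bp, against 20486 bp. That these medians lie on either side of 1 kb follows from the counts near TSSs. More than 10 kb lay between the start and the nearest peak in 65 of 89 members (73.0%), against 58.5% in like GC and 68.5% in all coding genes. All 9 Pax genes were in this group, the closest being Pax7 at 21659 bp. Among the Gata genes only Gata3 was nearer than 10 kb, at 7118 bp. The longest distances were at Tbx22, a factor of palate formation on the X chromosome (1738763 bp), and at Foxa1 (797617 bp).

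**Figure D4:**
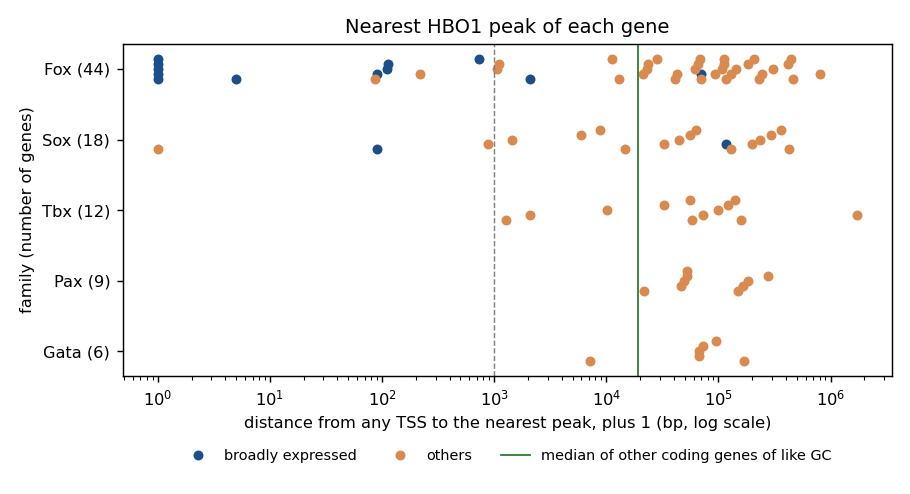
Distance from any TSS of a gene to the edge of the nearest HBO1 peak (x axis, bp plus 1, log scale) for each of the 89 members, by family (y axis). The dashed line marks the limit of 1 kb and the solid line the median of other coding genes of like GC, 19213 bp. Most broadly expressed genes lie left of the dashed line, and all Pax genes lie right of the solid line.

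Input around the TSSs was measured beside the peaks because it is denser at GC-rich starts. In the 1 kb around the outermost TSS the members had a median of 63 read ends (range 0 to 139), against 75 in other coding genes of like GC and 47 in all coding genes. Foxq1 and Tbx22 had 0. The 74 members without a near-TSS peak had a median of 61.5 and the 15 with one 88. The 6 members of 70% GC or more that had no peak and were not broadly expressed had between 98 and 133 read ends. The part of coverage in their lack of a peak was not tested. Leaving out the peaks whose 1 kb at the summit held more than 100 input read ends took the broadly expressed members with a near-TSS peak from 11 to 5, and the others from 4 to 3. Under the same filter these counts were 1.60 and 0.199 times those from like GC, and 15.6% of all coding genes had a peak.

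The same counts were taken for 2 other gene groups. Hox cluster genes, which like the members encode lineage factors, had a near-TSS peak in 5 of 39, against 9.87 from like GC, a ratio of 0.507, and the share from like GC (25.3%) lay inside the interval of the observed share (4.30 to 27.4%). Ribosomal protein genes, expressed in every cell, had one in 71 of 76, against 16.4, a ratio of 4.34. At a −log10 q of 10 or more, Hox genes had 2 against 3.63 from like GC (0.551) and ribosomal protein genes 62 against 5.62, where all members were at 0.0959 and the broadly expressed members at 0.453. The best near-TSS peak had a median −log10 q of 7.66 in the 11 broadly expressed genes with one, near the 8.21 of all coding genes with one. It was 7.71 in the 5 Hox genes with one and 19.4 in the 71 ribosomal protein genes.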

How the data were processed

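The authors aligned paired-end reads to mm10 with Novoalign 4.03.01 and called peaks with MACS2 (q 0.005, max-gap 100). The deposited narrowPeak list pools both HBO1 ChIP samples. The values used from it were the deposited fold enrichment over the local background of the caller (a ratio), the deposited −log10 of q and, for summits, the offset in bp that the authors' caller wrote. The input was deposited as a BED of 31973678 read ends with their mapping quality as score, and all were counted. The ChIP reads were not analysed here.

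Genes and TSSs were taken from GENCODE vM21. A gene was near a peak if the peak edge lay within 1 kb of a TSS. The expected count was the sum, over members, of the share of called genes among the other coding genes of the same GC class (2 percentage points, 1 kb around the outermost TSS, at least 20 other genes). Sequences, repeat masking and the genome copies of the 32 bases at summits came from the RefSeq GRCm38 sequence. Shares carry exact (Clopper-Pearson) binomial 95% intervals. With 1 pooled list no test between samples was made, so no p-value is given.

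Named genes were, per family, the 3 with the highest −log10 q near a TSS and the GC-richest without a peak, the 5 with the highest −log10 q in the body, the 5 with the most peaks within 5 kb (ties kept), and those with a peak edge 500 bp to 2 kb from a TSS. The other genes named were chosen after their values were seen. The members and lists were chosen with earlier results of these data known. The calls and expected counts were tested on simulated data. Python 3.11.15, numpy 2.4.6, pandas 2.3.3, scipy 1.17.1 and matplotlib 3.10.9 were used.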

Additional observations from a re-analysis of the deposited data

How the results depend on the processing

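The ratios for all members stayed below 1 under the alternatives tried. The ratio for the broadly expressed members did not keep its side: it was 1.92 with all peaks and 0.453 (1 gene against 2.21) when a −log10 q of 10 or more was required. Both counts at that limit are small and no interval was computed for them, so the change of side is not resolved. The cause was not tested. The ratio of the near-TSS count to that of coding genes of like GC was 0.534, stayed within its counting interval in 21 of 24 alternatives and ran from 0.0959 to 0.664. The ratio for gene bodies was 0.672, stayed within its interval in 18 of 20 and ran from 0.170 to 0.780. The intervals were wide, 0.309 to 0.833 near TSSs, and most alternatives recounted the same peaks and genes. In both tallies, leaving out members that share a peak could change nothing, since no peak was shared. With peaks of a −log10 q of at least 10, the near-TSS share was 1.12% (ratio 0.0959) and the gene-body share 2.25% (ratio 0.170). The near-TSS count fell from 15 to 1 and the count from like GC from 28.1 to 10.4, and the cause of the lower ratio was not tested. Without peaks of dense input the near-TSS share was 8.99% (ratio 0.440). With peaks within 1 kb of TSSs left out, the gene-body share was 12.4%. Without the Fox family the near-TSS ratio was 0.233. Without the broadly expressed members, an alternative chosen after seeing the data, the ratios were 0.179 near TSSs and 0.397 in gene bodies. Cutting the GC classes by number of TSSs and leaving out peaks in repeated sequence were also chosen after seeing the data, and both stayed within the intervals.

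The number of broadly expressed members with a near-TSS peak ran from 1 to 12 and that of the other members from 0 to 9, with 8 at a limit of 2 kb and 9 at 5 kb, where like GC gave 23.2 and 25.4 and the ratios for all members were 0.653 and 0.664. The Pax and Gata families stayed at 0 in all 9 alternatives on the peaks and TSSs, and the Tbx family reached 2. The small number of genes per family, and 1 pooled list with no ChIP depth in the files used here, limit what can be resolved. No paired analysis was possible because the peak list used here pools both ChIP samples, and leaving out a ChIP sample was not done.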
